A study of Mus musculus with 18 samples.

Results

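Interferon-stimulated genes are the genes that a cell switches on once an interferon has reached its receptor. Described here are 37 of them out of the 55450 genes measured in mouse mammary tumors, taken by gene symbol. They are 28 genes known mainly as targets of type I interferon and 9 genes known mainly as targets of interferon gamma, called gamma-type below. Across 18 tumors, in counts scaled to library size, 11 of the 28 type I members were highest in Cbfb(het) tumor 4. Another 5 each were highest in Cbfb(het) tumors 12 and 13, whereas 8 of the 9 gamma-type members were highest in Cbfb(het) tumor 5. Ptprc is the gene of the leukocyte surface protein CD45. A positive slope on it passed the test for 2 of 28 type I and 3 of 9 gamma-type members. The same held for 9.52% of all genes tested. Without 5 tumors low in Epcam, an epithelial marker, 0 of 37 members and 33 of 14333 genes passed. The slopes of Gbp4, Gbp5 and Irf1 were then larger, and those of Xaf1 and Ifit2 smaller. The median slope was larger for both kinds, at 0.28 against 0.16 for type I and 0.91 against 0.48 for gamma-type members. No member differed between the 14 Cbfb(het) and 3 Cbfb(wt) tumors at the threshold used, and neither did any other of the 18475 genes tested.

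Type I interferons (the alpha family and beta) bind the receptor made of IFNAR1 and IFNAR2, and the kinases JAK1 and TYK2 then act on a complex that holds STAT2 and IRF9 and binds a DNA element called ISRE. Interferon gamma, made mainly by T and NK cells, binds IFNGR1 and IFNGR2, signals through JAK1 and JAK2, and acts on genes through an element called GAS. Many targets answer to both, so the split into type I and gamma-type genes is one of preference, and IRF1, itself a target of interferon gamma, binds ISRE-like elements in turn. In tumors these genes are transcribed by cancer cells, stromal cells and leukocytes alike.

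The 18 tumors arose spontaneously in the mammary gland, and the series design puts each in a mouse of its own. The tumors carried 3 genotypes: 14 were Cbfb(het), 1 was Cbfb(homo) and 3 were Cbfb(wt). All 18 also carried the MMTV-Cre transgene, whose promoter drives Cre recombinase mainly in the mammary epithelium. Each was also heterozygous for H1047R, a change that activates the kinase gene Pik3ca (Pikca in the labels). No tumor was treated. How Cbfb was altered, and the age, sex, litter and batch of the mice, are not in the labels.

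The libraries held 33210207 to 40974130 rounded expected counts each, and all 37 members had at least 30 counts in every tumor. Levels are mostly given in TPM (transcripts per fixed number of transcripts), which are scaled by gene length, both between genes and for single tumors. SDs, means over members, deviations from a median, fold changes, slopes and correlations rest on counts or log2 CPM unless TPM is named. Log2 CPM is counts scaled to library size, after scaling the libraries to each other. The tumor with the highest TPM can differ from the tumor with the highest log2 CPM. Ifit1 and Oas2 were highest in Cbfb(het) 12 in TPM but in Cbfb(het) 4 in log2 CPM. Bst2 was highest in Cbfb(het) 12 in TPM but in Cbfb(het) 5 in log2 CPM. Epcam, the epithelial adhesion gene, lay between 2.45 and 6.86 log2 CPM in 5 tumors (Cbfb(het) 1, 10, 12 and 14, and Cbfb(wt) 2). It lay between 8.43 and 9.54 in the other 13, so 5 of the tumors had little of this epithelial marker. Epcam alone set these 5 apart. The 10 epithelial markers, Epcam among them, summed to 921.4, 1336 and 1179.3 TPM in Cbfb(het) 1, Cbfb(het) 12 and Cbfb(wt) 2. They summed to 9519.8 and 9896.5 TPM in Cbfb(het) 10 and 14, above the Cbfb(het) median of 7689.1 TPM. The libraries of Cbfb(het) 10 and 14 were far closer to each other than any other pair (chi-square per degree of freedom 4.18, against 85.9 for the next closest of 153 pairs). They still differed by more than sampling noise, and both were kept. Whether they share an animal, against the series design, was not tested. Counted as 1 sample, they left the 5 members called on Ptprc below and 0 members by genotype as they were, with 2487 genes called on Ptprc against 1961. Cbfb itself had 12.8, 27.9 and 71.1 TPM as the lowest, median and highest of the Cbfb(het) tumors, 10.8 TPM in the Cbfb(homo) tumor, and 35.7, 12.03 and 22.1 TPM in Cbfb(wt) 1, 2 and 3.

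The factors of the pathways bind ISRE and GAS elements, so the stretches that hold them are shown for 8 members with matches, to set both elements side by side. Of the members called on Ptprc below, Irf1 is among them; Gbp5, with 1 ISRE core and 2 GAS matches, and Ifit2, with 1 GAS match, are not printed. RefSeq promoters (build GRCm38.p6) were matched for 27 of the 37 members, 20 type I and 7 gamma-type, in 31 windows of 250 bases before a transcription start. The ISRE core was searched as GAAA, any 2 bases and GAAA again, and GAS as TTC, any 3 bases and GAA, on both strands. Capitals mark the matches, and each sequence is written 5′ to 3′ on the strand of its gene.
Isg15 (chr4:156200850-156200921, minus strand): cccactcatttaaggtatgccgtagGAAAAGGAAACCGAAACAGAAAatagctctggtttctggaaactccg
Bst2 (chr8:71537562-71537633, minus strand): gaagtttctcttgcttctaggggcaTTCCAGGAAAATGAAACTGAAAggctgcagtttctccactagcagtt
Ifit1 (chr19:34640760-34640838, plus strand): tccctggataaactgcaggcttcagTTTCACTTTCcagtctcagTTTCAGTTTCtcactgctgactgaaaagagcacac
Ifit3 (chr19:34583348-34583441, plus strand): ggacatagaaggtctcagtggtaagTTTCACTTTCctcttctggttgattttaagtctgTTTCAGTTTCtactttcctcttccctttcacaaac
Ifit3b (chr19:34607744-34607837, plus strand): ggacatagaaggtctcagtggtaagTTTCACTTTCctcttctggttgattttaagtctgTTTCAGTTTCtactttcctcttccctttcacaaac
Gbp7 (chr3:142530205-142530317, plus strand): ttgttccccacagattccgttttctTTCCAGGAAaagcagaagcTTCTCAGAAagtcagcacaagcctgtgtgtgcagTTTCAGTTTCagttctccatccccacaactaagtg
Igtp (chr11:58199486-58199555, plus strand): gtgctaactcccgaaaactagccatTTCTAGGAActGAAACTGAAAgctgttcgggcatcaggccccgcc
Irf1 (chr11:53769899-53769957, plus strand): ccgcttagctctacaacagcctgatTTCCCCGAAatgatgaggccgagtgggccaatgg

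Isg15 held 3 overlapping ISRE core matches in a row. The stretches of Ifit3 and Ifit3b were the same over all 94 bases. In Bst2 the GAS match overlapped the first of its ISRE core matches. The ISRE core occurred before 15 of the 27 members matched (55.6%) and before 3.46% of all 27025 genes in the promoter table. GAS occurred before 7 of the 27 members (25.9%) and before 8.13% of all genes. By kind, the ISRE core stood before 9 of 20 type I and 6 of 7 gamma-type members, and GAS before 3 of 20 type I and 4 of 7 gamma-type members. A match is a match of letters in this window and no more.

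The interferons themselves were barely represented. None of 21 ligand genes passed the filter on low counts. The 14 alpha interferon genes together gave at most 2 counts in a tumor, and 13 of the 18 tumors had 0, which allows up to 3 counts. Ifnb1, the beta interferon, gave at most 4 counts, in Cbfb(het) 12. Ifng, the gamma interferon, was the sole ligand to reach 1 TPM in any tumor: it had 1.49 TPM from 39 counts in Cbfb(het) 5, and at most 4 counts in each of the other 17.

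The receptor genes were all measured well. Ifnar1 had 10.9, 21.7 and 57.2 TPM as the lowest, median and highest of the Cbfb(het) tumors, 28.2 TPM in the Cbfb(homo) tumor, and 31.2, 70.1 and 23.1 TPM in Cbfb(wt) 1, 2 and 3. Cbfb(wt) 2 was the highest of the 18 tumors in TPM for Ifnar1, Ifnar2, Ifngr1, Ifngr2 and Il10rb, a shared subunit of the interferon lambda receptor. Ifnlr1, the subunit particular to interferon lambda, was at its lowest there, at 0.22 TPM, against 13.8 TPM in Cbfb(het) 13, its highest.

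Among the members that are transcription factors, Irf7 (chromosome 7, 141262706 to 141266481 in GENCODE M21, GRCm38), which drives later rounds of type I interferon production, varied the most. It had 24.1, 48.8 and 133 TPM as the lowest, median and highest of the Cbfb(het) tumors, 45.4 TPM in the Cbfb(homo) tumor, and 101, 9.79 and 50.3 TPM in Cbfb(wt) 1, 2 and 3. The lowest tumor of all 18 was thus a Cbfb(wt) tumor and the highest, Cbfb(het) 13, a Cbfb(het) tumor, with the groups overlapping. Irf9, the DNA-binding part of the type I complex, was far steadier: its log2 CPM had an SD of 0.49 over 18 tumors, against 1.03 for Irf7. It had 22.0, 36.6 and 67.4 TPM as the lowest, median and highest of the Cbfb(het) tumors, 40.4 TPM in the Cbfb(homo) tumor, and 45.8, 17.5 and 46.5 TPM in Cbfb(wt) 1, 2 and 3. Stat2, its partner, was also steady (SD 0.47), at 6.12, 17.6 and 40.1 TPM in the Cbfb(het) tumors, 22.4 TPM in the Cbfb(homo) tumor, and 20.4, 10.1 and 16.8 TPM in Cbfb(wt) 1, 2 and 3. Irf1 (chromosome 11, 53770014 to 53778374), the gamma-type factor, did not share the low of Irf7 in Cbfb(wt) 2: it had 18.1, 40.5 and 137 TPM as the lowest, median and highest of the Cbfb(het) tumors, 48.1 TPM in the Cbfb(homo) tumor, and 41.1, 94.3 and 33.1 TPM in Cbfb(wt) 1, 2 and 3.

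Isg15 (chromosome 4, 156199424 to 156200818), a ubiquitin-like protein that is joined to other proteins, was the most abundant member after Bst2 by median TPM. It had 34.1, 87.9 and 226 TPM as the lowest, median and highest of the Cbfb(het) tumors, 55.4 TPM in the Cbfb(homo) tumor, and 166, 39.7 and 57.0 TPM in Cbfb(wt) 1, 2 and 3. Usp18, which removes ISG15 and damps the type I receptor, had its lowest TPM in Cbfb(wt) 2, at 1.57, against 38.9 TPM in Cbfb(het) 13, its highest. Trim25, a ubiquitin ligase upstream of the sensor RIG-I, was the steadiest of the 37 members, with an SD of 0.27 in log2 CPM. Its highest tumor was 2.67 times its lowest in TPM, whereas the median ratio was 10.2 over the type I members.

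The IFIT genes, whose proteins bind viral RNA, lie side by side on chromosome 19 (34550694 to 34650009). Ifit3 was the most variable member of all, with an SD of 1.35 in log2 CPM. It had 2.18, 10.3 and 57.0 TPM as the lowest, median and highest of the Cbfb(het) tumors, 6.54 TPM in the Cbfb(homo) tumor, and 19.6, 4.74 and 3.46 TPM in Cbfb(wt) 1, 2 and 3. Cbfb(het) 12 held the highest TPM of all 4 IFIT genes. Ifit2 stood apart from its neighbours in Cbfb(wt) 2, where it reached 12.8 TPM, below Cbfb(het) 12 and Cbfb(het) 1 and above the other 15 tumors. Ifit1 had its lowest value in that tumor, at 2.31 TPM. Of the 50-base stretches of Ifit3, 51.2% also occur in Ifit3b, so how reads were shared out between these neighbours is uncertain.

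The OAS genes make the enzymes that activate the antiviral nuclease RNase L. Their median TPM was 27.0 for Oas1a, 10.98 for Oas2 and 5.20 for Oas3. Oas2 (SD 1.22 in log2 CPM) had its highest TPM in Cbfb(het) 12, at 26.4, and its lowest in Cbfb(wt) 2, at 2.09. Oas1a shares 57.6% of its 50-base stretches with Oas1g, and its value is uncertain for that reason. Among the sensors of viral nucleic acid, Ddx58 (RIG-I) and Zbp1 had the highest levels after Oasl2, with medians of 27.1, 32.0 and 33.3 TPM for Ddx58, Zbp1 and Oasl2. Oasl1, which restrains Irf7 translation in mouse, had 2.68, 9.29 and 30.1 TPM as the lowest, median and highest of the Cbfb(het) tumors, 4.6 TPM in the Cbfb(homo) tumor, and 13.9, 1.90 and 4.59 TPM in Cbfb(wt) 1, 2 and 3. Ifih1 (MDA5) and Dhx58 (LGP2) had medians of 10.6 and 13.6 TPM.

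Bst2 (tetherin, chromosome 8, 71534255 to 71537456), which holds budding virus at the cell surface, was the most abundant member. It had 55.2, 166 and 302 TPM as the lowest, median and highest of the Cbfb(het) tumors, 118 TPM in the Cbfb(homo) tumor, and 171, 78.0 and 166 TPM in Cbfb(wt) 1, 2 and 3. Rtp4 came after Bst2 and Isg15 by median TPM, with 26.7, 49.6 and 117 TPM in the Cbfb(het) tumors, 52.6 TPM in the Cbfb(homo) tumor, and 83.5, 9.59 and 47.0 TPM in Cbfb(wt) 1, 2 and 3. As with Irf7, its lowest tumor was Cbfb(wt) 2. Xaf1, an antagonist of the apoptosis inhibitor XIAP, had 15.4, 36.5 and 109 TPM in the Cbfb(het) tumors, 44.0 TPM in the Cbfb(homo) tumor, and 52.6, 46.2 and 31.1 TPM in Cbfb(wt) 1, 2 and 3, so it was not low in Cbfb(wt) 2. The GTPase genes Mx1 and Mx2, neighbours on chromosome 16, stayed at medians of 3.29 and 5.64 TPM. GENCODE M21 lists Mx2 as a polymorphic pseudogene, so its RNA need not stand for a working protein. Rsad2 (viperin) and Cmpk2, which lie next to each other on chromosome 12, had medians of 4.66 and 4.86 TPM.

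The gamma-type GTPases act in defense against intracellular microbes, and some of them attack the membranes around these microbes. They fall into the guanylate-binding proteins, of which Gbp2, Gbp3, Gbp5 and Gbp7 lie together on chromosome 3 (142493978 to 142638008), and the immunity-related GTPases Igtp, Irgm1 and Iigp1. Gbp2 had 7.49, 24.4 and 149 TPM as the lowest, median and highest of the Cbfb(het) tumors, 16.5 TPM in the Cbfb(homo) tumor, and 32.5, 57.0 and 22.0 TPM in Cbfb(wt) 1, 2 and 3. Igtp had 7.43, 20.8 and 140.4 TPM in the Cbfb(het) tumors, 11.7 TPM in the Cbfb(homo) tumor, and 33.3, 12.4 and 17.3 TPM in Cbfb(wt) 1, 2 and 3. Irgm1 had 11.6, 25.04 and 86.2 TPM in the Cbfb(het) tumors, 30.9 TPM in the Cbfb(homo) tumor, and 34.7, 17.9 and 26.8 TPM in Cbfb(wt) 1, 2 and 3. The highest tumor of all 3 was Cbfb(het) 5. Iigp1 was among the 3 most variable members (SD 1.27): it had 2.17, 11.1 and 70.7 TPM in the Cbfb(het) tumors, 16.2 TPM in the Cbfb(homo) tumor, and 13.03, 7.14 and 11.9 TPM in Cbfb(wt) 1, 2 and 3. Gbp4 (SD 1.32) was the least abundant member, with 0.22, 1.01 and 9.11 TPM in the Cbfb(het) tumors, 3.45 TPM in the Cbfb(homo) tumor, and 1.56, 6.26 and 1.05 TPM in Cbfb(wt) 1, 2 and 3. Gbp5 was also low, with 0.30, 1.94 and 10.2 TPM in the Cbfb(het) tumors, 1.91 TPM in the Cbfb(homo) tumor, and 2.88, 2.74 and 0.78 TPM in Cbfb(wt) 1, 2 and 3. Both had a highest tumor over 30 times the lowest in TPM, at 41.4 times for Gbp4 and 33.9 times for Gbp5.

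**Figure D1:**
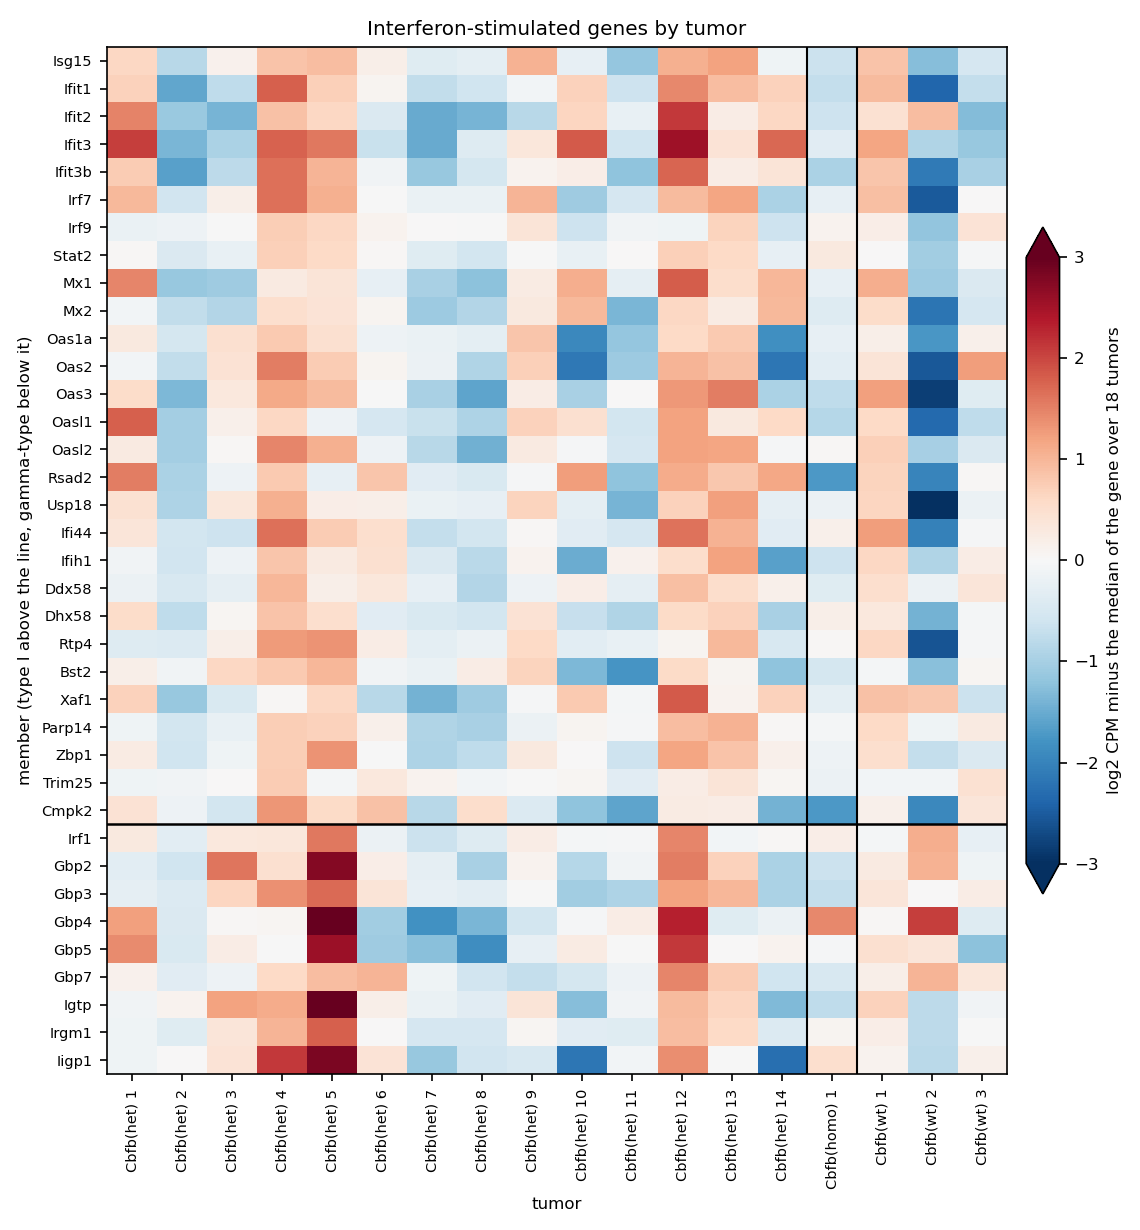
Heat map of log2 CPM of each member minus its median over 18 tumors, with members down the page and tumors across it, Cbfb(het) left, then Cbfb(homo) and Cbfb(wt). Cbfb(het) 4 and 13 are above the median in all 28 type I members, Cbfb(wt) 2 is above it in 2 of 28, and Cbfb(het) 5 holds the strongest gamma-type values.

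The members as a whole were more variable than most genes. The SD of log2 CPM over 18 tumors had a median of 0.89 over the type I members and 1.00 over the gamma-type members, beside 0.50 over the 14532 genes with a value. The median type I member exceeded 77.2% of these genes, and the median gamma-type member 81.6%.

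Type I members moved as a block in several tumors. In log2 CPM, all 28 lay above their own median in Cbfb(het) 4 and in Cbfb(het) 13, 27 in Cbfb(het) 12, 26 in Cbfb(wt) 1 and 25 in Cbfb(het) 5. At the other end, 0 of 28 lay above it in Cbfb(het) 2 and 2 of 28 in Cbfb(het) 7, Cbfb(het) 8 and Cbfb(wt) 2. Cbfb(wt) 2 was the lowest of the 18 tumors for 16 type I members. The mean log2 CPM over the type I members ranged up to 5.62 in Cbfb(het) 12 and 5.60 in Cbfb(het) 4, and down to 3.17 in Cbfb(wt) 2.

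The gamma-type members followed another order. Cbfb(het) 5 was the highest of the 18 tumors in log2 CPM for 8 of 9, all but Gbp7, with a mean of 6.53 over the 9 members. Cbfb(het) 12 came next at 5.75, and it was the highest for Gbp7. Cbfb(het) 8 had the lowest mean, at 3.49. Cbfb(wt) 2, the lowest tumor for type I members, ranked sixth for gamma-type members, at 4.62. The mean of the type I members minus that of the gamma-type members was -1.45 in Cbfb(wt) 2 and -1.29 in Cbfb(het) 5, and lay between -0.39 and 0.87 in the other 16 tumors.

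Cbfb(het) 5 also had the highest summed T cell markers, with 8 markers at 43.8 TPM, against 24.7 TPM in the next highest tumor. The 7 B and plasma cell markers summed to 239.9 TPM there, against 90.2 TPM in the next highest, and 220.5 TPM of this was Jchain, the joining chain of secreted antibodies. Cd79b was highest in Cbfb(het) 12 and Pou2af1 in Cbfb(het) 14. The 7 NK cell markers summed to 7.2 TPM in Cbfb(het) 5, below Cbfb(het) 1 (16 TPM), Cbfb(wt) 2 (9.8 TPM) and Cbfb(wt) 3 (9.1 TPM), and Klre1 and Eomes were at 0 in some tumors. No T cell marker was at 0 counts in any tumor, whereas some B and plasma cell markers, Ms4a1 and Mzb1 among them, were. The T cell markers, Jchain and the Ifng counts given above moved with the gamma-type members in this tumor, and their part in the levels was not tested. In bulk RNA, fewer cells of a type and less RNA per cell cannot be told apart.

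The alike tumors Cbfb(het) 10 and 14 split the type I members. In both, Ifit1, Ifit2, Ifit3, Mx1, Mx2, Rsad2 and Xaf1 lay over 0.5 log2 units above their medians. In both, the 9 members Irf7, Irf9, Oas1a, Oas2, Oas3, Ifih1, Dhx58, Bst2 and Cmpk2 lay over 0.5 below. Mx2 reached 11.4 and 11.6 TPM in them, its highest values, while Oas1a had 6.96 and 7.47 TPM, its lowest. No gamma-type member lay over 0.5 above its median in both, and Gbp2, Gbp3, Gbp7, Igtp and Iigp1 lay over 0.5 below. The 6 fibroblast markers summed to 20699 and 20798 TPM in these tumors, the highest of the 18, and their part in the pattern was not tested.

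**Figure D2:**
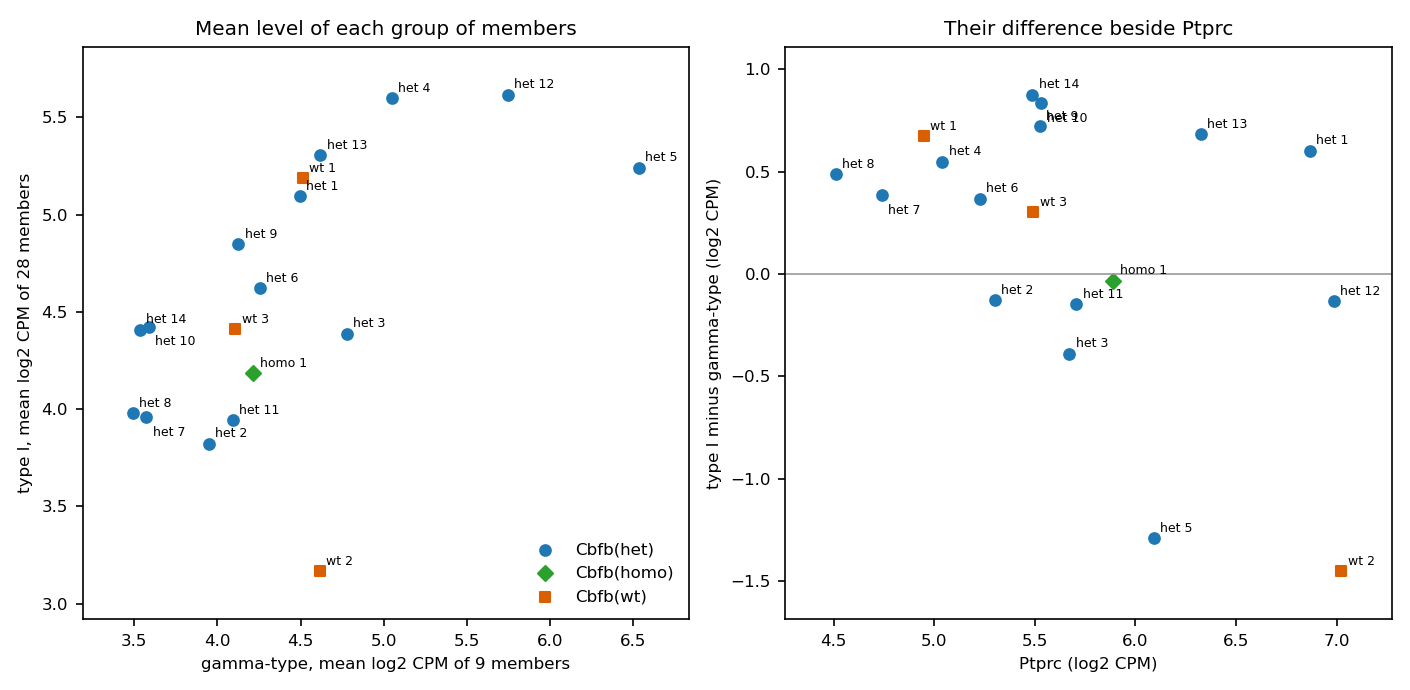
Left, mean log2 CPM of the 28 type I members against that of the 9 gamma-type members, a point for each of 18 tumors, labelled by genotype and replicate. Right, the difference of these means against log2 CPM of Ptprc. Cbfb(wt) 2 (-1.45) and Cbfb(het) 5 (-1.29) lie well below the other 16 tumors.

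The relation to leukocyte RNA was read from Ptprc, which had 4.0, 13.6 and 49.6 TPM as the lowest, median and highest of the Cbfb(het) tumors, 19.4 TPM in the Cbfb(homo) tumor, and 10.8, 47.0 and 14.6 TPM in Cbfb(wt) 1, 2 and 3. Its log2 CPM ran from 4.51 in Cbfb(het) 8 to 7.02 in Cbfb(wt) 2. For each gene the slope is the log2 change per log2 unit of Ptprc over all 18 tumors, so that 1 means a change in proportion to Ptprc. By edgeR's quasi-likelihood test with Benjamini-Hochberg adjustment over 14531 genes at 0.05, 5 members had a positive slope and 0 a negative slope. Of all genes tested, 13.5% passed, 9.52% with a positive and 3.97% with a negative slope. The share of type I members that passed, 2 of 28, was thus near the background, and 3 of 9 gamma-type members passed. In simulated counts the test called 7% of genes with a slope of 0.5 and 71% with a slope of 1. The simulation changed 200 genes, whereas 1961 were called in the data, and its noise was fitted without Ptprc. Its adjusted threshold was thus stricter, and these shares need not hold for the members. A member that did not pass may still have a slope of either size.

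Among the gamma-type members, Gbp4 had a slope of 1.57 ± 0.33 (SE, adjusted p = 0.00412), Gbp5 of 1.17 ± 0.29 (adjusted p = 0.0129) and Irf1 of 0.64 ± 0.14 (adjusted p = 0.0064), by edgeR. All 9 gamma-type slopes were positive, with a median of 0.48. The other 6 did not pass: Gbp2 had 0.79 ± 0.33 (adjusted p = 0.116), Gbp7 0.48 ± 0.18 (adjusted p = 0.0777), and Igtp 0.38 ± 0.41 (adjusted p = 0.549), by edgeR. Irgm1, Iigp1 and Gbp3 had slopes of 0.27, 0.34 and 0.27. Among the type I members, Ifit2 had 0.89 ± 0.24 (adjusted p = 0.0216) and Xaf1 0.71 ± 0.21 (adjusted p = 0.0293), by edgeR. Over all type I members 23 slopes were positive and 5 negative, with a median of 0.16, beside -0.01 over all genes tested. This median was 0.018 without Cbfb(het) 12 and 0.33 without Cbfb(wt) 2, the lowest and highest with 1 tumor left out. Of the 6 type I members with the highest median TPM, Xaf1 alone passed. Isg15 had a slope of 0.22 ± 0.25, Irf7 of 0.10 ± 0.30, Irf9 of -0.15 ± 0.16 and Rtp4 of -0.17 ± 0.28. Bst2 had a slope of 0 to 2 decimals (SE 0.24), and its sign, like those of Irf9 and Rtp4, turned positive under other settings. Ifit3, at 0.63 ± 0.38, and Mx1, at 0.58 ± 0.27 (adjusted p = 0.157 by edgeR), did not pass either.

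**Figure D3:**
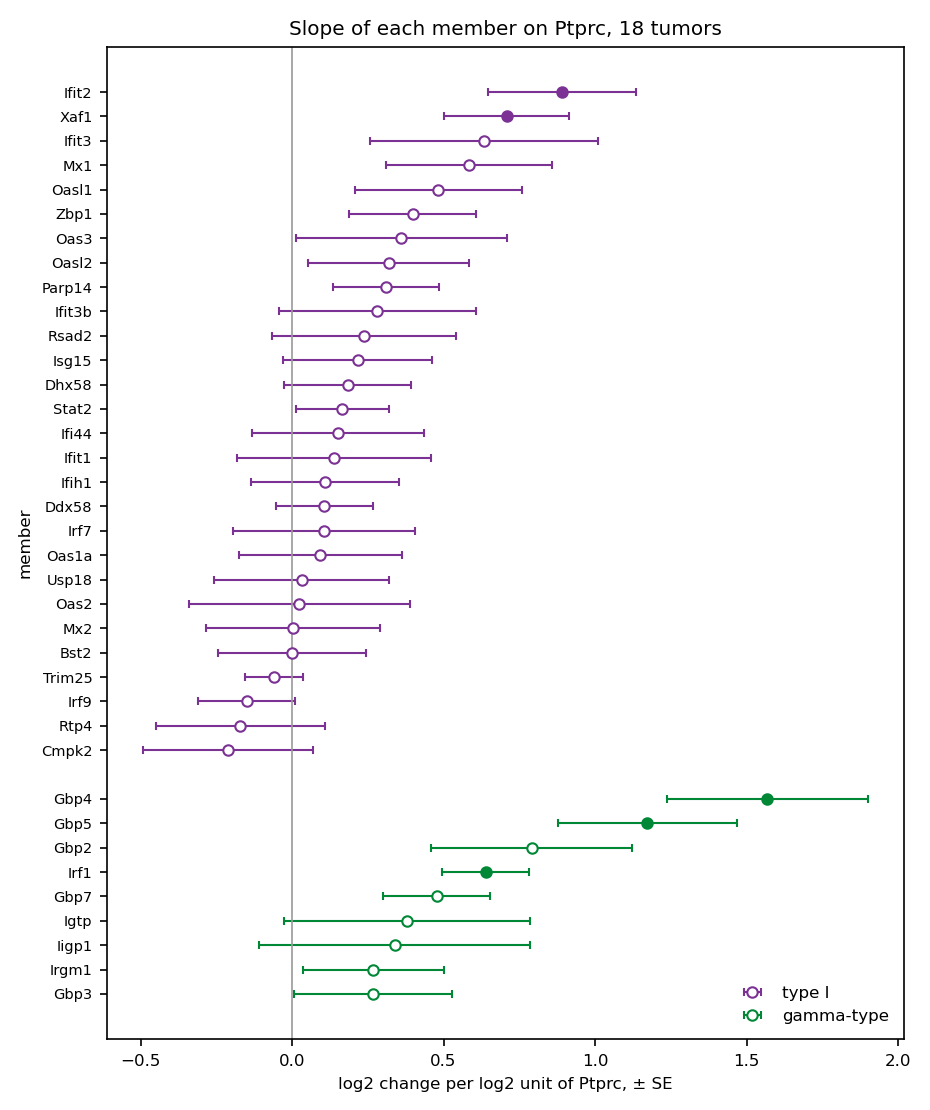
Slope of each member on Ptprc over 18 tumors, as log2 change per log2 unit of Ptprc with its SE, type I members above and gamma-type members below. Filled points passed the test: Ifit2, Xaf1, Gbp4, Gbp5 and Irf1.

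The calls of Gbp4 and Irf1 held with each of the 18 tumors left out in turn, and the other 3 did not. Without Cbfb(het) 12 and Cbfb(wt) 2, the tumors farthest from the median of Ptprc, edgeR called 1 member, Gbp4, among 455 genes. Without the 5 tumors with low Epcam, a setting chosen after the data were seen, it called 0 of 37 members and 33 genes, with 1882 genes at an unadjusted p under 0.05. The slopes were then 2.14 for Gbp4, 1.55 for Gbp5 and 0.71 for Irf1, each above its value in all 18 tumors, and 0.43 for Xaf1 and 0.35 for Ifit2, each below it. The median slope was 0.28 over the type I members (0.16 in all 18 tumors) and 0.91 over the gamma-type members (0.48 in all 18). Of single tumors, leaving out Cbfb(het) 12 ended the calls of Gbp5, Ifit2 and Xaf1, leaving out Cbfb(het) 8 those of Ifit2 and Xaf1, leaving out Cbfb(het) 1 that of Ifit2, and leaving out Cbfb(het) 7 or Cbfb(wt) 2 that of Xaf1. Leaving out Cbfb(het) 6 brought in Gbp7. On log2(TPM + 1) with limma, 12 members and 5392 genes passed, 5084 with a positive and 308 with a negative slope, beside 1384 and 577 in the counts, and the median slope of all genes shifted to 0.19 from -0.01.

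Markers of several cell types had slopes on Ptprc as well. All 8 pan-leukocyte markers other than Ptprc and all 8 macrophage markers had positive slopes, and 5 and 7 of them passed. Of the T cell markers 4 could be tested, all with positive slopes, and 2 passed. All 6 fibroblast markers (median 1.13) and all 6 endothelial markers (median 0.56) had positive slopes too, and 1 of each passed. All 10 epithelial markers had negative slopes, from -1.49 to -0.75, and 1 passed. The summed macrophage markers ranged from 412 to 2844 TPM in the Cbfb(het) tumors, stood at 1208 TPM in the Cbfb(homo) tumor, and were 627, 3384 and 842 TPM in Cbfb(wt) 1, 2 and 3, with no marker at 0. Which cells the 5 members were transcribed in was not tested.

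**Figure D4:**
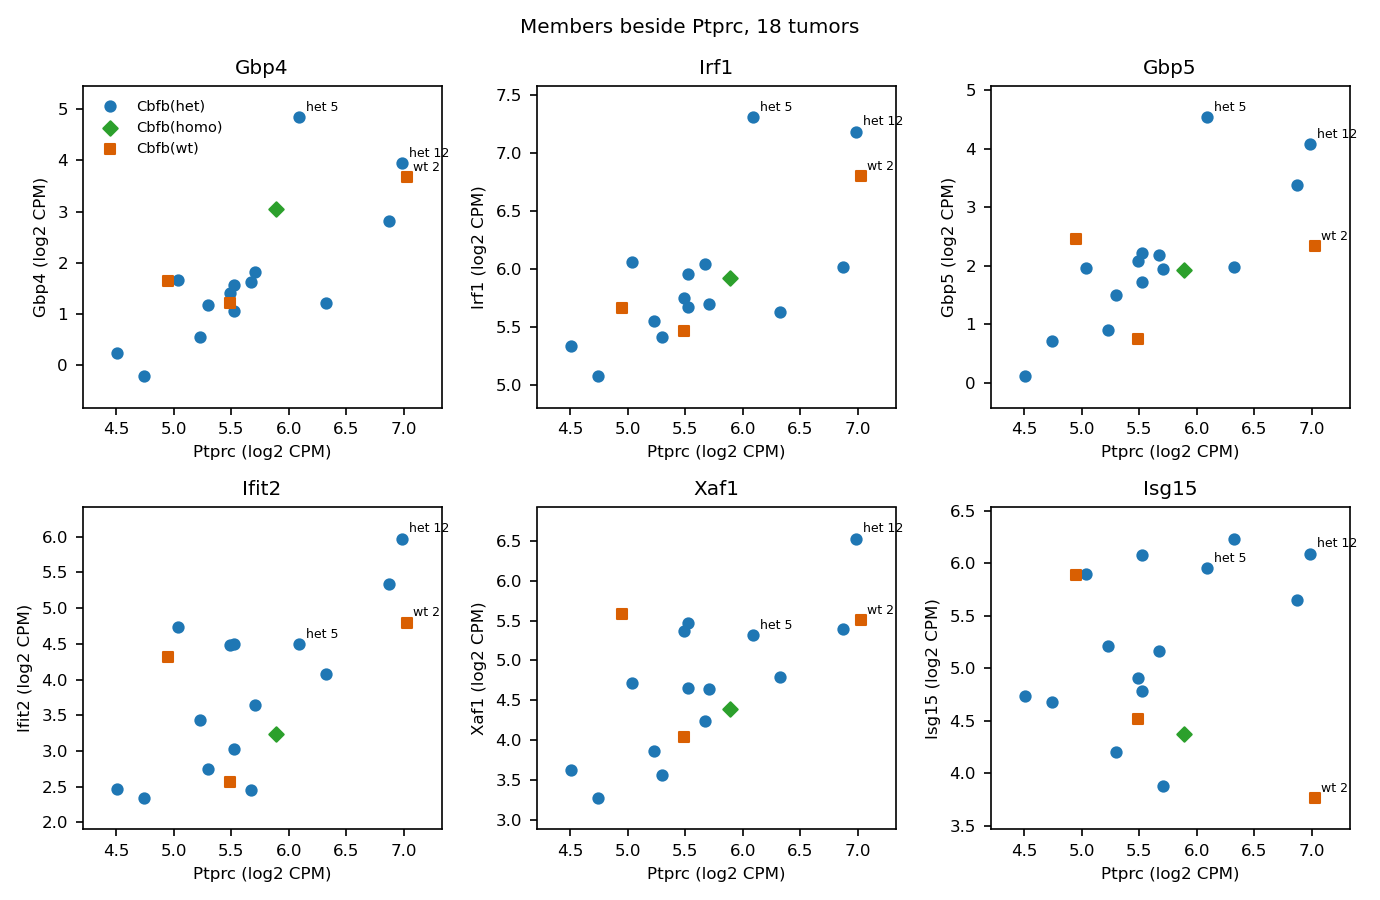
Log2 CPM of the 5 members that passed, and of Isg15 for contrast, against log2 CPM of Ptprc, a point for each of 18 tumors coloured by genotype. Gbp4, Irf1 and Gbp5 are highest in Cbfb(het) 5, Ifit2 and Xaf1 in Cbfb(het) 12, and Isg15 is lowest in Cbfb(wt) 2, the tumor with the most Ptprc.

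Correlations over the 18 tumors named the same 5 members. Pearson's r with Ptprc in log2 CPM was 0.77 for Gbp4 (permutation p = 0.00028, adjusted p = 0.00768), 0.71 for Irf1 (p = 0.00125, adjusted p = 0.0179), 0.70 for Gbp5 (p = 0.00132, adjusted p = 0.0185), 0.67 for Xaf1 (p = 0.00251, adjusted p = 0.0258) and 0.66 for Ifit2 (p = 0.00291, adjusted p = 0.028). Of all 14531 genes, 16% passed, 9.06% with a positive and 6.99% with a negative r. Spearman's rho was 0.73 for Gbp4 (permutation p = 0.00077, adjusted p = 0.0261), 0.67 for Irf1 (p = 0.00296, adjusted p = 0.0533), 0.65 for Gbp5 (p = 0.00455, adjusted p = 0.0656), 0.56 for Xaf1 (p = 0.0183, adjusted p = 0.126) and 0.56 for Ifit2 (p = 0.0166, adjusted p = 0.12). By rank, then, Gbp4 alone of these passed, beside 5.03% of all genes, 4.05% with a positive and 0.977% with a negative rho. Without Cbfb(het) 12 and Cbfb(wt) 2, r over 16 tumors was 0.65 for Gbp4, 0.51 for Irf1, 0.68 for Gbp5, 0.50 for Xaf1 and 0.51 for Ifit2, with 0 members past the threshold (permutation adjusted p of 0.126 to 0.35 for these 5) and 214 genes past it. The relation thus did not hold at the threshold without those tumors, although r was still near its full value for Gbp5.

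Beyond the members, the genes that start an interferon response rose with Ptprc in part. Of 13 genes for the induction of interferon 5 passed with a positive slope by edgeR, against 9.52% of all genes: Tlr9, a receptor for DNA in endosomes, had 1.54 ± 0.16 (adjusted p = 5.48e-06), and the transcription factors Irf8 and Irf5 had 0.84 ± 0.10 (adjusted p = 2.68e-05) and 0.63 ± 0.12 (adjusted p = 0.00134). The other 2 were the RNA receptor Tlr7 and Tmem173 (STING). Of 6 receptor genes Ifnar1 passed, at 0.48 ± 0.13 (adjusted p = 0.0174 by edgeR). Of 10 JAK-STAT genes and inhibitors, a share near that of all genes, Ptpn6, the leukocyte phosphatase SHP-1, passed, at 0.42 ± 0.11 (adjusted p = 0.0136 by edgeR). Of 42 other interferon-induced genes tested, 8 passed, all with positive slopes, among them Gbp9 (1.41 ± 0.26, adjusted p = 0.0013), Ifi203 (0.79 ± 0.17, adjusted p = 0.00521) and Cxcl10, a chemokine for T cells (1.31 ± 0.33, adjusted p = 0.0141), all by edgeR. Without the 5 tumors with low Epcam, 0 of the 8 genes with values here that passed did so by edgeR, with adjusted p between 0.107 and 0.62. The slopes were then 0.77 for Irf8, 0.61 for Irf5, 1.48 for Gbp9 and 0.80 for Ifi203, close to those in all 18 tumors. They were 1.04 for Tlr9, 0.85 for Cxcl10, 0.30 for Ptpn6 and 0.16 for Ifnar1.

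By genotype, 14 Cbfb(het) tumors could be compared with 3 Cbfb(wt) tumors. Over the type I members the mean log2 CPM was 4.66 ± 0.63 in Cbfb(het) tumors and 4.26 ± 1.02 in Cbfb(wt) tumors (SD, n = 14 and 3), with a range of 3.82 to 5.62 in Cbfb(het) tumors and values of 5.19, 3.17 and 4.41 in Cbfb(wt) 1, 2 and 3. Over the gamma-type members it was 4.42 ± 0.89 in Cbfb(het) tumors and 4.41 ± 0.27 in Cbfb(wt) tumors (SD, n = 14 and 3). The groups overlapped for all 37 members. The share of all genes that overlap was not counted, so the overlap is no result about the members. EdgeR's quasi-likelihood test called 0 of 37 members and 0 of 18475 genes (0%). At an unadjusted p under 0.05 it had 0 members and 623 genes, where DESeq2 and limma-voom also called 0 genes and had 932 and 489.

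The log2 fold change of Cbfb(het) over Cbfb(wt) was positive for 22 of 28 type I members, with a median of 0.36, and for 6 of 9 gamma-type members, with a median of 0.20, beside a median of 0.03 over all genes tested. The members with the smallest p were Stat2 (0.38 ± 0.29), Oasl1 (0.75 ± 0.60) and Ifit3 (0.93 ± 0.86), with an edgeR adjusted p of 0.999 for each. Without Cbfb(wt) 1 they were 0.56, 1.75 and 2.08, and without Cbfb(wt) 2 they were 0.12, 0.30 and 0.61 for Stat2, Oasl1 and Ifit3. Among the abundant members, Bst2 had 0.46 ± 0.47, Isg15 0.41 ± 0.49, Irf1 -0.07 ± 0.41 and Gbp2 0.19 ± 0.68. The positive type I median rested on Cbfb(wt) 2: without it the median was -0.03, and without Cbfb(wt) 1 it was 0.95. Without the 5 tumors with low Epcam, which include Cbfb(wt) 2, it was -0.12 for type I members and 0.44 for gamma-type members, and limma-voom put the gamma-type median at -0.04. With 1 tumor left out the gamma-type median ranged from 0.047 to 0.50, the highest without Cbfb(wt) 2 and the lowest without Cbfb(het) 5.

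**Figure D5:**
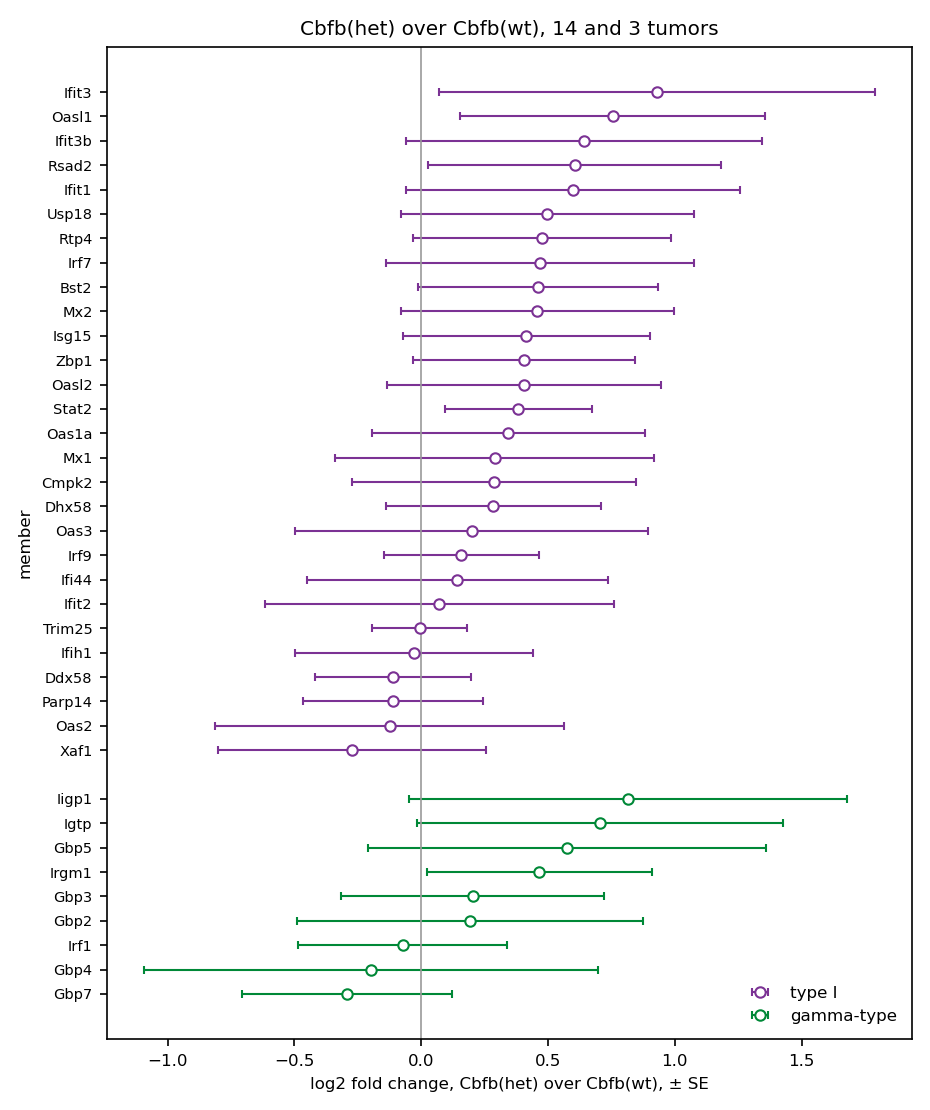
Log2 fold change of Cbfb(het) over Cbfb(wt) for each member with its SE, from 14 and 3 tumors, type I members above and gamma-type members below. Open points did not pass the test, which is every member, and most SE bars reach or cross 0.

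The Cbfb(homo) tumor was inside the range of the other 17 tumors for both kinds of member. Its mean log2 CPM was 4.18 over type I members, the 13th highest of 18, and 4.22 over gamma-type members, the 10th highest. Cmpk2 and Rsad2 lay farthest below the median of the other 17, with differences of -1.86 and -1.75 log2 units, at 2.03 and 1.60 TPM. Gbp4 lay farthest above it, by 1.48 log2 units, at 3.45 TPM. With 1 tumor these values have no replicate check.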

How the data were processed

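Polyadenylated RNA of 18 mouse mammary tumors was sequenced from TruSeq Stranded mRNA libraries, per the labels. The authors deposited RSEM expected counts and TPM per gene, per the file headers, made with STAR 2.7.0f and RSEM 1.3.1 on mm10 going by the submitters' processing notes. The deposited expected counts were rounded to whole numbers, and libraries held 33210207 to 40974130. TPM served to compare genes and to give levels in single tumors. EdgeR 4.0.16 (R 4.3.3; TMM, filterByExpr, robust quasi-likelihood test, Benjamini-Hochberg threshold 0.05) compared 14 Cbfb(het) with 3 Cbfb(wt) tumors, and fitted the slope on centred log2 CPM (prior count 2) of Ptprc over all 18. Correlations used 100000 permutations (scipy 1.17.1), two-sided, adjusted over 14531 genes. Alternatives used DESeq2 1.42.0 and limma 3.58.1. On simulated counts with 200 of 14534 genes changed, the genotype fit called 66.5% of genes changed 4-fold and 89% of genes changed 16-fold. With 0 of 18475 genes called in the data, the adjusted threshold was stricter there than in this simulation. The fit on Ptprc called 7% of genes with a slope of 0.5 and 71% with a slope of 1. Here too 200 genes were changed, against 1961 called in the data. In both simulations the changed genes were drawn from the better expressed ones, and the noise was fitted without genotype or Ptprc. The shares need not hold for the members. Members and gene lists were chosen with earlier results of these data known. Any member could be named. Full values were given for the most abundant, most and least variable members and those with the smallest p, and for receptors, ligands reaching 1 TPM and up to 3 further genes per pathway list by p. Other members shown in full were chosen after their values were seen. Positions are from GENCODE M21 (GRCm38) and promoters from RefSeq. The Cbfb(homo) tumor entered no genotype test.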

Additional observations from a re-analysis of the deposited data

How the results depend on the processing

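For Cbfb(het) against Cbfb(wt), 0 members were called under every alternative run. Genes called were 1 without a filter on low counts and 1 with all 18 tumors fitted. The gamma-type median was -0.0407 by limma-voom. The type I median was -0.12 without the 5 tumors with low Epcam (chosen after the data were seen), where Oasl1 had -0.20 and Ifit3 -0.19. Leaving out 1 tumor gave type I medians of -0.0284 to 0.95. For the slope on Ptprc, genes called were 3449 by DESeq2, 5392 on log2(TPM + 1), 703 with Epcam as covariate, 969 with 8 other pan-leukocyte genes in place of Ptprc, 455 without the 2 tumors farthest from the Ptprc median, 764 in Cbfb(het) tumors alone and 33 without the 5 low-Epcam tumors. Of DESeq2's calls 1812 were higher and 1637 lower. Members called were 12 on log2(TPM + 1), 2 with the 8 genes, 1 without the 2 farthest tumors and 0 without the 5. Leaving out 1 tumor gave 984 to 2606 genes (984 without Cbfb(wt) 2, 1154 without Cbfb(het) 12, 1253 without Cbfb(het) 1) and 2 to 6 members. The slope of Bst2 turned positive at 0.0728 (TPM), 0.000607 (no filter), 0.47 (Epcam covariate), 0.34 (8 genes), 0.0648 (without 2), 0.16 (Cbfb(het) alone) and 0.10 (without 5), and ranged from -0.13 to 0.12 with 1 tumor left out. Irf9 gave 0.0511 (TPM), 0.17 (Epcam covariate), 0.0574 (without 2), 0.0101 (Cbfb(het) alone) and 0.22 (without 5). Rtp4 gave 0.15 (Epcam covariate), 0.15 (without 2), 0.12 (Cbfb(het) alone) and 0.41 (without 5), and -0.29 to 0.0413 with 1 left out. Trim25 gave 0.20 (TPM), and -0.10 to 8.63e-05 with 1 left out. Members past the correlation threshold were 1 by Spearman's rho, 11 on log2(TPM + 1) by Pearson's r, and 0 by either coefficient without the 2 farthest or without the 5 low-Epcam tumors. The causes were not tested. No paired analysis was possible because the labels carry no replicate number that differs between tumors; the numbers used to name tumors here were given in order within a genotype and pair nothing. The 3 Cbfb(wt) tumors limit the precision of the genotype comparison. Where nothing in the labels separates cohorts or litters, p-values measure the spread between these tumors.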
